A study of Mus musculus with 6 samples.

Results

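The genes described here are 39 interferon-responsive genes of the mouse, taken from a fixed list of symbols that covers the response from its transcription factors to its effectors. A probe set counted as belonging to a gene where the platform annotation gave it exactly 1 symbol and that symbol was on the list. This gave 48 probe sets of 41420, for 29 of the 39 genes, and these 29 stand among 16813 genes measured in the same way, each represented by whichever of its probe sets was brightest on average. The other 10 genes (Irf7, Ifit2, Isg15, Usp18, Ifi44, Gbp3, Igtp, Irgm1, Iigp1 and Cxcl10) are not analysed here. Transcript levels were measured with Affymetrix expression arrays in the uterus of intact females at 2 weeks of age, for which the labels list no treatment. There were 3 arrays of the genotype Arid1a f/f and 3 of the genotype Arid1a d/d. In the usual notation f is a floxed allele and d a deleted one, and Arid1a encodes a DNA-binding part of a SWI/SNF chromatin remodeller. The labels name neither the Cre driver nor the cells that lose the gene, and they do not say whether each array is 1 animal. Going by its title the study is about uterine gland formation and its need for Arid1a, and the question here is how interferon-responsive transcripts differed between the genotypes.

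Interferons are secreted proteins that cells release on sensing foreign or misplaced nucleic acid, and mouse uterine epithelium also makes an interferon of its own, interferon epsilon, without infection. Type I and type III interferons act through receptors and JAK kinases on a complex that holds Stat2 and Irf9 and binds a DNA element with paired GAAA repeats, the interferon-stimulated response element. Interferon gamma acts on a shorter element, the gamma-activated site, and raises GTPases, chemokines and the machinery of antigen presentation.

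The arrays had median intensities of 6.34 to 6.59 and correlated at 0.987 to 0.995 over all probe sets, and no pair held identical values. Array d/d 1 stood apart from d/d 2 and d/d 3 in many of the genes below, and values without it are given where they change a call. Arid1a itself measured 7.54, 7.58 and 7.71 in f/f arrays 1, 2 and 3 and 6.98, 7.06 and 7.04 in d/d arrays 1, 2 and 3 on the log2 scale (log2 difference -0.58 ± 0.09 SE, limma adjusted p = 0.0342 over probe sets). Of 8 markers of the uterus 7 were measured, and the mean level of all 7 lay above 2.69, the median log2 level over all probe sets. The means of 10803 of all 16813 genes lay above it in both genotypes. Of the 7 markers 5 were lower and 2 higher in d/d arrays. Foxa2 was lower (log2 difference -1.41, limma adjusted p = 0.0116 over genes), and Wnt7a was higher without overlap (1.39, limma adjusted p = 0.102). In what follows a difference is always d/d minus f/f in log2 units, with its SE from limma, and levels of different probe sets are not compared with each other. A probe set whose mean is at or below 2.69 in both genotypes is called dim, since background limits what it can show.

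No interferon-responsive gene passed the test of a difference between the genotypes. By limma 0 of the 29 genes passed an adjusted p of 0.05 in either direction, against 1.14% of all genes (0.63% higher, 0.512% lower), and 0 of the 48 probe sets passed, against 0.524% of all probe sets. At an unadjusted p under 0.05 there were 6 genes, 2 higher (Irf9, Xaf1) and 4 lower (Rsad2, Bst2, Psmb8, Irf1) in d/d uteri, where 12.2% of all genes reached that level (5.29% higher, 6.88% lower). In 5 of the 29 the d/d arrays did not overlap with the f/f arrays, Irf9 and Xaf1 above and Rsad2, Irf1 and Psmb8 below, where the groups of 16.5% of all genes did not overlap (7.1% higher, 9.42% lower). Of the 48 probe sets 10 had an unadjusted p under 0.05 and 10 had groups without overlap, where the shares of all probe sets were 9.85% and 14.1%. Among the 20 members above 2.69 in both genotypes 0 passed and the groups of 5 did not overlap, where 1.56% of all such genes passed and 19.3% did not overlap. The count of the 29 genes without overlap thus lay near the background. The counts of genes and of probe sets at an unadjusted p under 0.05 lay above their background shares, and the list as a whole was not tested. The median difference of the 29 genes was -0.06, beside -0.01 for all genes, and 20 of the 29 lay below 0, beside 53.4% of all genes. For 17 of the 29 the difference was under 0.1 in size, beside 50.1% of all genes, and for 6 it was over 0.3, beside 12.2% of all genes.

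**Figure D1:**
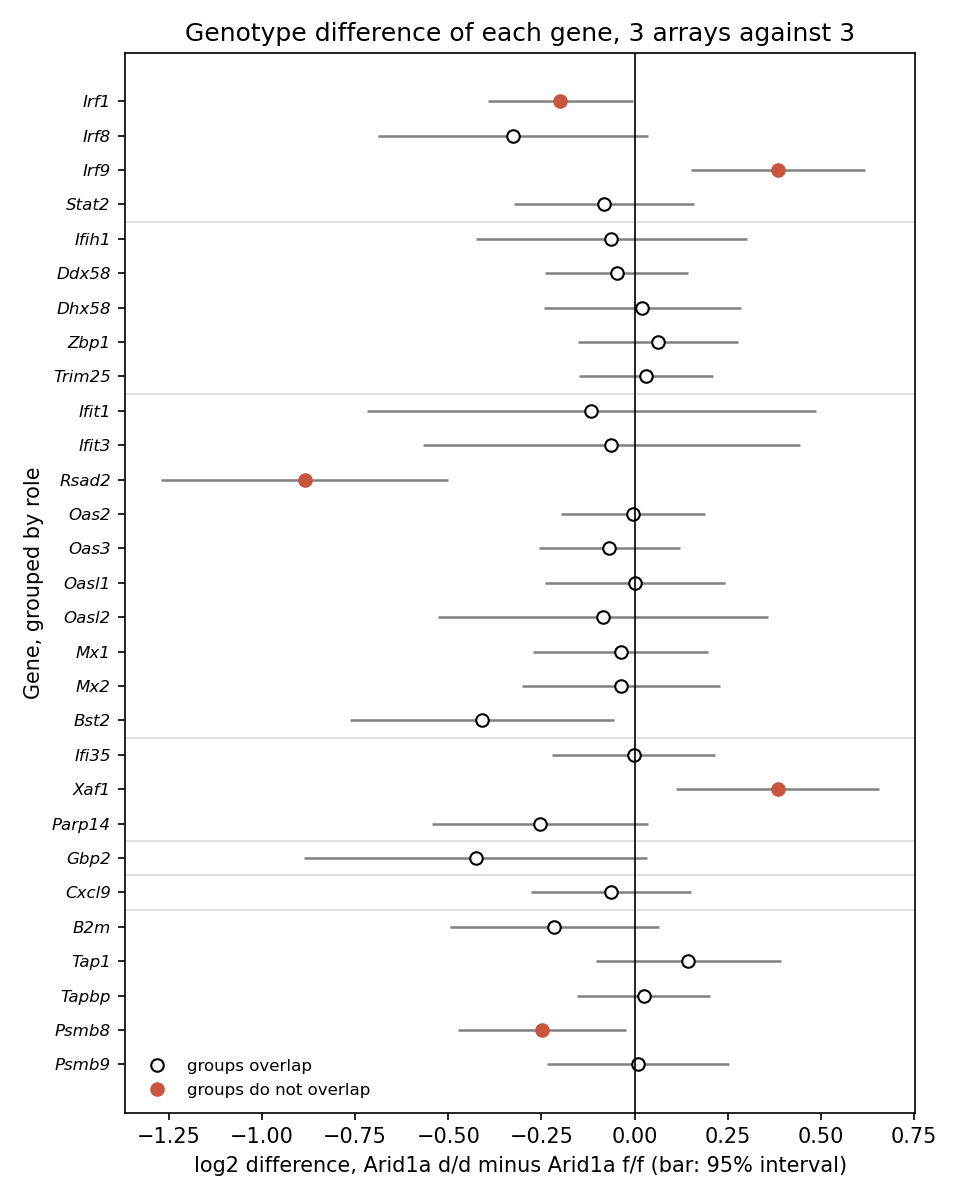
The log2 difference of each of the 29 genes (d/d minus f/f, horizontal axis) with its 95% limma interval, 3 arrays against 3, grouped by role on the vertical axis. Filled points mark genes whose groups do not overlap; Rsad2 lies farthest from 0, at -0.89, and Irf9 and Xaf1 are the filled points above 0.

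How closely the arrays bounded the difference varied between these genes. The 95% interval, not adjusted for the number of genes, lay within 0.5 log2 units of 0 for 19 of the 29 and within 1 for 28, beside 75.5% and 95.6% of all genes. The 10 genes whose intervals reached beyond 0.5 were Irf8, Irf9, Ifit1, Ifit3, Rsad2, Oasl2, Bst2, Xaf1, Parp14 and Gbp2. Such an interval need not be wide: those of Irf9 (0.15 to 0.62) and Xaf1 (0.11 to 0.66) were narrower than that of Ifih1 (-0.43 to 0.30), which lay within 0.5. Of the 29 genes 9 were dim: Stat2, Dhx58, Zbp1, Oas3, Oasl1, Mx1, Mx2, Cxcl9 and Tap1. All 9 are among the 19 genes with an interval within 0.5, and for them a narrow interval describes the background as much as the transcript.

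**Figure D2:**
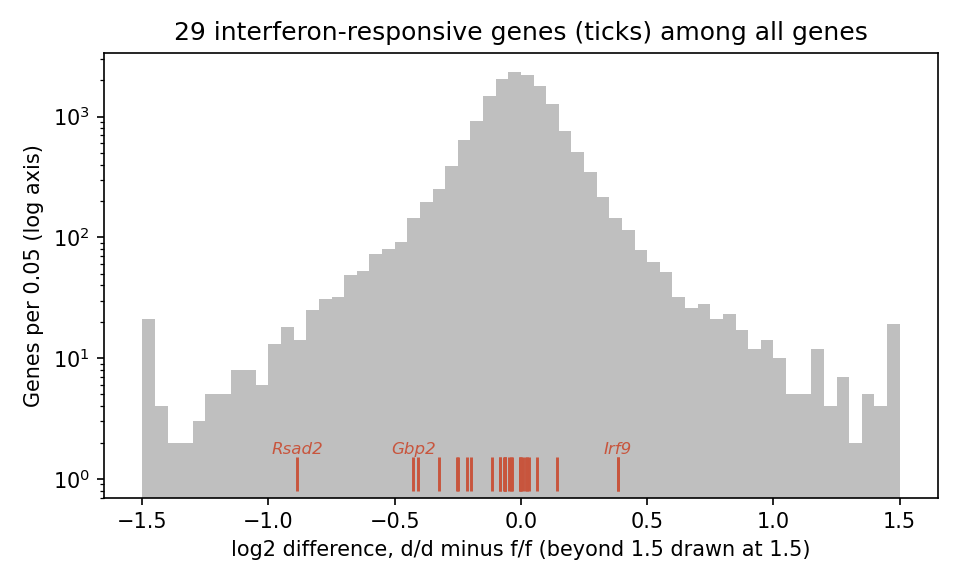
Distribution of the log2 difference (d/d minus f/f, horizontal axis, values beyond 1.5 drawn at 1.5) over all 16813 genes as counts per 0.05 on a log axis, with the 29 interferon-responsive genes as ticks. The ticks crowd around 0, between -0.89 for Rsad2 and 0.39 for Irf9.

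Rsad2 had the largest difference of the group. It encodes viperin, an antiviral radical SAM enzyme that makes a chain-terminating nucleotide. Its brightest probe set measured 6.83, 6.80 and 6.54 in f/f arrays 1, 2 and 3 and 6.20, 5.65 and 5.66 in d/d arrays 1, 2 and 3. Every d/d value was lower than every f/f value, with d/d 1 nearest to them. The mean was 6.72 ± 0.16 in f/f and 5.84 ± 0.32 in d/d (SD, n = 3), a difference of -0.89 ± 0.17 SE, or 1.85-fold. Its limma adjusted p was 0.0578 over genes, just outside the threshold, and 0.0716 over probe sets.

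The other probe sets of Rsad2 gave the same order of arrays by genotype. The second measured 5.29, 5.02 and 4.94 in f/f and 4.48, 3.96 and 3.57 in d/d arrays 1, 2 and 3, a difference of -1.08 ± 0.21 SE (limma adjusted p = 0.0910 over probe sets). The third measured 3.33, 3.36 and 3.18 in f/f and 2.85, 2.53 and 2.59 in d/d, a difference of -0.63 ± 0.11 SE (limma adjusted p = 0.0601). In each the d/d values all lay below the f/f values and d/d 1 was the highest of the d/d arrays. Leaving out d/d 1 took the brightest probe set to -1.07 with a limma adjusted p of 0.00365 over genes. It passed over genes too with an intensity trend and robust variance (0.0381) or array weights (0.0189). Without any other single array it did not pass, with adjusted p over genes up to 0.238. In bulk tissue, fewer cells that hold a transcript and less of it per cell cannot be told apart.

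**Figure D3:**
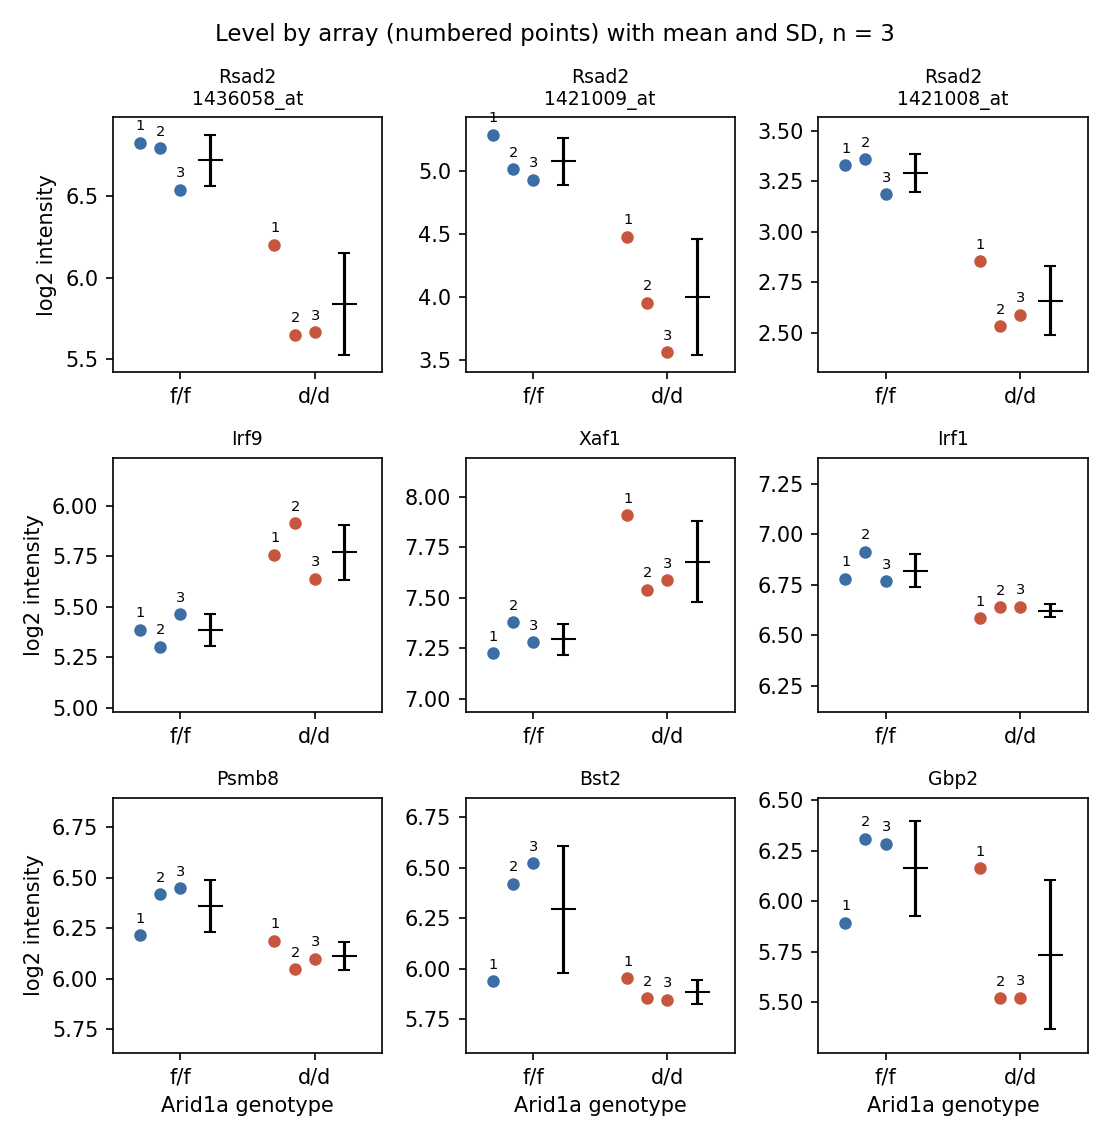
Log2 intensity by array (numbered points, vertical axis) in Arid1a f/f and d/d uteri, with the mean and SD of 3 arrays, for the 3 probe sets of Rsad2 and the brightest probe sets of 6 other genes. In every Rsad2 panel the d/d points lie below the f/f points; Irf9 and Xaf1 lie above, and Bst2 and Gbp2 overlap.

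Cmpk2, a mitochondrial nucleotide kinase, is the next protein-coding gene to Rsad2 in the RefSeq gene order. It measured 4.55, 3.98 and 4.21 in f/f and 4.27, 3.74 and 3.32 in d/d arrays 1, 2 and 3. The groups overlapped, and the difference of -0.47 ± 0.24 SE did not pass (limma adjusted p = 0.517).

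The transcription factors went different ways. Irf9, the DNA-binding partner of Stat2, measured 5.39, 5.30 and 5.46 in f/f and 5.76, 5.91 and 5.64 in d/d arrays 1, 2 and 3. All d/d arrays lay above all f/f arrays, and the difference of 0.39 ± 0.10 SE (1.31-fold) had a limma adjusted p of 0.148. Irf1, a factor of the interferon gamma response, measured 6.78, 6.91 and 6.77 in f/f and 6.58, 6.64 and 6.64 in d/d, without overlap, a difference of -0.20 ± 0.08 SE with a limma adjusted p of 0.396. Irf8, a factor of myeloid cells, measured 3.69, 3.73 and 3.65 in f/f and 3.73, 3.11 and 3.24 in d/d. Array d/d 1 lay with the f/f arrays and the other 2 below them, and the difference was -0.33 ± 0.16 SE (limma adjusted p = 0.475). Stat2 was dim, at -0.08 by its brightest probe set, while its other dim probe set stood at 0.18 with d/d above f/f in all arrays. Of the 4 measured factors 0 passed.

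Of the 5 genes of nucleic acid sensing 0 passed. Ddx58, which encodes the RNA sensor RIG-I, measured 5.42, 5.49 and 5.43 in f/f and 5.43, 5.32 and 5.46 in d/d arrays 1, 2 and 3 (difference -0.05 ± 0.08 SE). Zbp1, a sensor of left-handed nucleic acid, measured 2.56, 2.61 and 2.64 in f/f and 2.64, 2.80 and 2.56 in d/d (difference 0.06 ± 0.09 SE). The groups of both overlapped. The other Ddx58 probe sets stood at -0.17 and, dim, at -0.12, also with overlap, and the mean of all its probe sets at -0.11. Ifih1, the sensor MDA5, stood at -0.06, Dhx58, the related helicase LGP2, at 0.02, and Trim25, a ubiquitin ligase that activates RIG-I, at 0.03. The interval of Trim25 ran from -0.15 to 0.21. The dimmer Zbp1 probe set stood at -0.34 with an unadjusted p of 0.021 (limma adjusted p = 0.370) and lay below 2.69 in every array.

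Of the 10 antiviral effectors measured, Rsad2 included, 0 passed, and 4 (Oas3, Oasl1, Mx1 and Mx2) were dim. Bst2, the membrane protein tetherin that holds budding virus at the cell surface, measured 5.94, 6.42 and 6.52 in f/f and 5.95, 5.85 and 5.85 in d/d arrays 1, 2 and 3. Array f/f 1 lay among the d/d arrays, and the difference was -0.41 ± 0.15 SE (limma adjusted p = 0.329). Ifit1, which binds foreign RNA caps, measured 3.52, 3.64 and 3.31 in f/f and 4.03, 3.08 and 3.01 in d/d (difference -0.12 ± 0.26 SE). Ifit3, its partner, measured 3.99, 4.24 and 3.79 in f/f and 4.44, 3.77 and 3.63 in d/d (difference -0.06 ± 0.22 SE). For both genes d/d 1 was the highest of all arrays and d/d 2 and d/d 3 were the lowest, so the spread within d/d was wider than the gap between the means. Oas2, which makes the activator of RNase L, stood at -0.0045 with an interval of -0.20 to 0.19, and Oasl2, a related protein, at -0.08. The dim genes stood between -0.07 (Oas3) and 0.0015 (Oasl1), with the GTPases Mx1 and Mx2 each at -0.04.

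Among the remaining response genes Xaf1 was higher in d/d arrays. It encodes an antagonist of the apoptosis inhibitor XIAP and measured 7.23, 7.38 and 7.28 in f/f and 7.91, 7.54 and 7.59 in d/d arrays 1, 2 and 3. The groups did not overlap, and d/d 1 was the highest. The difference of 0.38 ± 0.12 SE (1.30-fold) had a limma adjusted p of 0.224, and as the mean of its 2 probe sets, of which the other is dim, it was 0.14. Parp14, an ADP-ribosyltransferase, measured 5.24, 5.41 and 5.17 in f/f and 5.26, 4.92 and 4.88 in d/d, with d/d 1 among the f/f arrays (difference -0.25 ± 0.13 SE, and -0.17 as the mean of its probe sets). Ifi35, a cytoplasmic protein induced by interferon, stood at -0.0025 by its brightest probe set and at -0.18 and -0.04 by the others.

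The GTPases and chemokines were represented by 1 gene each. Gbp2, a guanylate-binding protein of the defence against intracellular microbes, measured 5.89, 6.31 and 6.29 in f/f and 6.16, 5.52 and 5.52 in d/d arrays 1, 2 and 3. Array d/d 1 again lay among the f/f arrays, and the difference of -0.43 ± 0.20 SE did not pass (limma adjusted p = 0.455). It has 1 probe set, whose suffix _x_at marks probes that may bind other transcripts, and the guanylate-binding proteins are a family of close relatives. Without d/d 1 Gbp2 stood at -0.64 with a limma adjusted p of 0.0440 over genes, and it did not pass over probe sets. Cxcl9, a chemokine for T cells, measured 1.59, 1.74 and 1.63 in f/f and 1.47, 1.63 and 1.67 in d/d, below 2.69 in every array.

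In antigen processing Psmb8 was the gene whose groups did not overlap. Psmb8, a catalytic subunit of the immunoproteasome, measured 6.22, 6.42 and 6.45 in f/f and 6.19, 6.05 and 6.10 in d/d arrays 1, 2 and 3. The groups did not overlap, though d/d 1 and f/f 1 lay close together, and the difference was -0.25 ± 0.10 SE (limma adjusted p = 0.356). B2m, the light chain of class I molecules, measured 9.41, 9.38 and 9.52 in f/f and 9.47, 9.08 and 9.12 in d/d (difference -0.22 ± 0.12 SE, and -0.34 without d/d 1). Its other probe set gave -0.30 without overlap (limma adjusted p = 0.471 over probe sets). Psmb9, another immunoproteasome subunit and a close neighbour of Psmb8 in the gene order, stood at 0.01 with an interval of -0.24 to 0.25. Between them lies Tap1, the peptide transporter, which was dim (0.14). Its other probe sets, also dim, stood at 0.02 and -0.13, the last with d/d below f/f in all arrays. Tapbp, the loading factor tapasin, stood at 0.02. Of these 5 genes 0 passed.

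The place of d/d 1 relative to d/d 2 and d/d 3 was looked at after the values were seen. Array d/d 1 was above both of them in 18 of the 29 genes and below both in 4, where the shares over all genes were 36.5% and 37.0%. With d/d 1 left out, d/d 2 and d/d 3 lay below all f/f arrays in 12 of the 29 genes, beside 19.5% of all genes, and above them in 2, beside 15.9%. The 12 were Irf1, Irf8, Ifih1, Ifit1, Ifit3, Rsad2, Oas2, Bst2, Parp14, Gbp2, B2m and Psmb8, and the 2 were Irf9 and Xaf1. Without d/d 1, limma called 3 of the 29 genes, all lower: Rsad2 (-1.07), Gbp2 (-0.64) and Irf8 (-0.51, adjusted p = 0.0296). The same fit called 821 of all genes, 493 of them lower, in place of 192. With both arrays numbered 1 left out it called 3, with Bst2 (-0.62, limma adjusted p = 0.0320) in place of Irf8, and it called 540 of all genes.

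**Figure D4:**
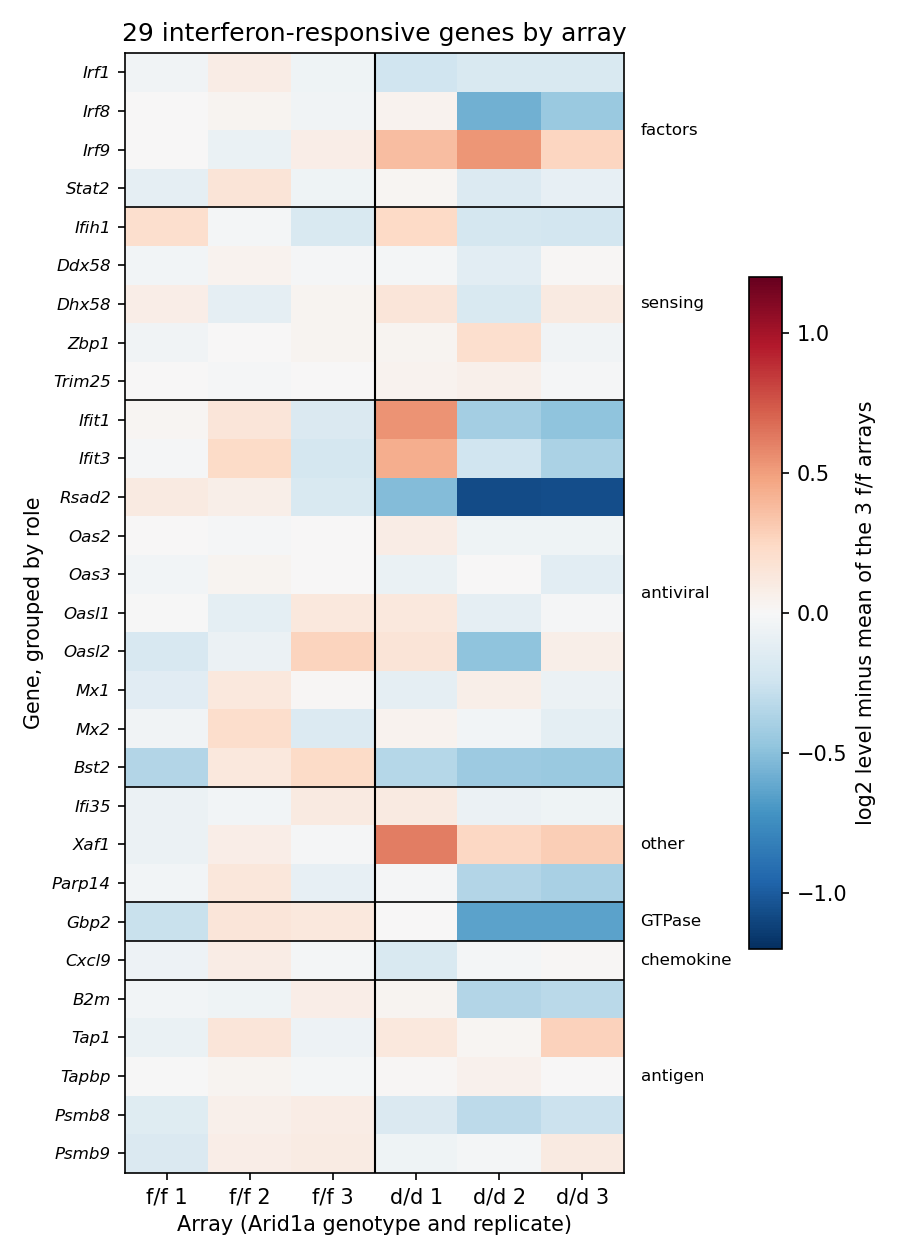
Log2 level of each of the 29 genes (rows, grouped by role) in each of the 6 arrays (columns), minus the mean of the 3 f/f arrays, on a colour scale from blue (lower) to red (higher). Rsad2 is blue in all d/d columns, Irf9 and Xaf1 are red in all of them, and Irf8, Ifih1, Ifit1, Ifit3 and B2m are among the genes that are blue in d/d 2 and d/d 3 and above 0 in d/d 1, while Parp14 and Gbp2 are near 0 in d/d 1.

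Among other genes of the interferon pathway none passed. Of 110 such genes listed by role, 79 were measured. By limma 0 passed the threshold in either direction, beside 1.14% of all genes. At an unadjusted p under 0.05 there were 10, 5 higher and 5 lower, beside 12.2% of all genes (5.29% higher, 6.88% lower). The median difference of the 79 was -0.04, beside -0.01 for all genes. The groups of 10 of the 79 did not overlap, 4 with d/d higher and 6 lower, beside the 16.5% of all genes.

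Interferon transcripts themselves were dim, apart from Ifnz. Of 10 measured ligands 9 lay below 2.69 in both genotypes, with Ifng at 1.77, 1.73 and 1.49 in f/f and 1.64, 1.52 and 1.34 in d/d arrays 1, 2 and 3. Ifnz, an interferon of type I, measured 4.09, 4.57 and 4.16 in f/f and 4.81, 4.81 and 5.03 in d/d. All d/d arrays lay above all f/f arrays, a difference of 0.61 ± 0.14 SE with a limma adjusted p of 0.106. Ifne, the interferon of uterine epithelium, is not analysed here.

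Of the receptor chains named here none passed. Ifnlr1, the receptor chain specific to type III interferons and a gene of epithelia, measured 4.17, 4.13 and 4.23 in f/f and 4.53, 4.62 and 4.43 in d/d arrays 1, 2 and 3. The groups did not overlap (0.35 ± 0.09 SE, limma adjusted p = 0.134). Ifnar1, a chain of the type I receptor, measured 6.36, 6.19 and 6.27 in f/f and between 5.99 and 6.11 in d/d, without overlap in the other direction (-0.24 ± 0.09 SE, limma adjusted p = 0.317). Its partner Ifnar2 stood at -0.03, and the receptor chains of interferon gamma, Ifngr1 and Ifngr2, at -0.08 and -0.17. Among inducers and sensors Tlr9 stood at 0.21 and Irf3 at -0.15, and among negative regulators Socs3 at 0.31 and Ptpn1 at -0.27.

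Ly6e and Phf11d had the smallest p among the further interferon-induced genes. Ly6e, a membrane protein that restricts virus entry, measured 7.56, 7.72 and 7.98 in f/f and 7.30, 6.93 and 7.09 in d/d arrays 1, 2 and 3 (-0.65 ± 0.14 SE, limma adjusted p = 0.0924). Phf11d measured 5.48, 5.66 and 5.44 in f/f and 5.26, 4.82 and 4.72 in d/d (-0.60 ± 0.15 SE, limma adjusted p = 0.137). Neither overlapped. Against these stood Oas1a, an oligoadenylate synthetase, at 0.51 and Ifitm1, a membrane protein that blocks virus fusion, at 0.22, both with all d/d arrays above all f/f arrays and neither past the threshold.

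In antigen presentation the class I heavy chain H2-K1 measured 8.68, 8.87 and 8.77 in f/f and 8.61, 8.17 and 8.22 in d/d arrays 1, 2 and 3 (-0.44 ± 0.13 SE, limma adjusted p = 0.209). H2-D1, another class I heavy chain, stood at -0.29 (limma adjusted p = 0.451). The class II genes split the d/d arrays. H2-Aa measured 7.86, 7.50 and 7.18 in f/f and 8.09, 6.31 and 6.18 in d/d, and Cd74, the invariant chain, 5.16, 4.91 and 4.61 in f/f and 5.21, 3.53 and 3.51 in d/d. Array d/d 1 was the highest of all arrays for both genes and d/d 2 and d/d 3 were the lowest. The probe sets of H2-K1, H2-D1 and H2-Aa carry the suffix _x_at, so they may bind other transcripts and need not be independent. They were the brightest of 4, 9 and 4 probe sets, and the others are not given here. Without d/d 1, limma called 6 of the 79 pathway genes, all lower: H2-K1, H2-Aa, H2-Ab1, Cd74, Ly6e and Phf11d. That fit called 821 of all 16813 genes, 493 of them lower.

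Markers of other cells differed between the arrays as well, and their part in the interferon values was not tested. The mean level of 6 general leukocyte markers was 4.77, 4.62 and 4.78 in f/f and 4.75, 4.57 and 4.46 in d/d arrays 1, 2 and 3. That of 10 macrophage and monocyte markers was 4.81 to 4.88 in f/f and 4.72 to 4.90 in d/d, with d/d 1 the highest. For 11 lymphocyte and NK cell markers, 4 of them dim, it was 2.61 to 2.78 in f/f and 2.56 to 2.66 in d/d. For 6 dendritic cell markers, 3 of them dim, it was 2.74 to 2.88 in f/f and 2.61 to 2.72 in d/d. Of these 6, 3 were higher and 3 lower in d/d arrays, and 1 passed, Batf3 at -0.53. For 8 markers of granulocytes and mast cells, 5 of them dim, it was 2.67 to 2.84 in f/f and 2.42 to 2.52 in d/d. Of these 8, 6 were lower and 2 higher in d/d arrays, from -0.98 for Kit to 0.23 for Cpa3, and 0 passed. The 29 interferon-responsive genes had mean levels of 4.70, 4.80 and 4.75 in f/f and 4.80, 4.58 and 4.60 in d/d.

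Means of markers of structural tissue also differed, and their part was likewise not tested. The mean of 6 endothelial markers was 6.34 to 6.53 in f/f and 6.21, 5.60 and 5.83 in d/d arrays 1, 2 and 3, and that of 9 stromal markers 9.75 to 9.87 in f/f and 9.58, 9.28 and 9.32 in d/d. For 5 smooth muscle markers it was 8.73 to 8.91 in f/f and 8.38 to 8.86 in d/d. The mean of 6 fat markers was 5.06 to 5.71 in f/f and 4.80, 3.91 and 4.09 in d/d. Epithelial markers went the other way, with a mean over 6 genes of 7.71 to 7.90 in f/f and 8.22 to 8.47 in d/d. In these lists 2 markers passed the limma threshold, Cdh1 of the epithelium at 1.00 and Thy1 of the stroma at -1.06.

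**Figure D5:**
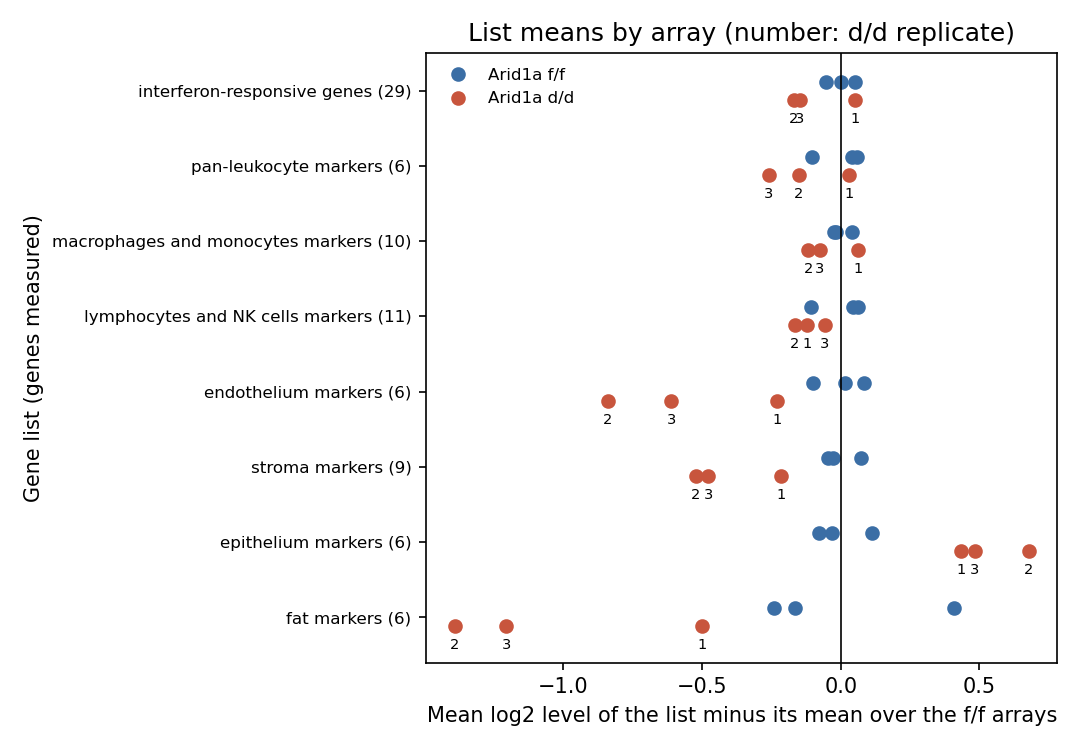
Mean log2 level of each gene list in each array (points), minus its mean over the 3 f/f arrays (horizontal axis), with the d/d arrays numbered; the count of genes measured stands in brackets. The interferon-responsive genes spread over a narrow range, with d/d 1 among the f/f arrays, while the endothelium, stroma, fat and epithelium lists separate the genotypes. The means of the dendritic cell list and of the granulocyte and mast cell list, which are not drawn, do not overlap either. The single genes of those 2 lists went both ways.

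Letters that match the response element were more common in the promoters of these genes than in promoters at large. The list was chosen for its interferon response, so this is a trait of the list and not a result of these arrays. The 250 bases before the transcription start were read from RefSeq (build GRCm38.p6), which gave a promoter for 23 of the 29 measured genes. The first motif searched, on both strands, was GAAA followed after 2 free bases by another GAAA. It occurred in 8 of the 23 (34.8%) and in 3.01% of 13342 measured genes with a promoter. The palindromic gamma-activated site TTCNNNGAA occurred in 4 of the 23 (17.4%) and in 7.45% of measured genes, and in Bst2 a match to it overlapped a match to the first motif. The 8 genes with the GAAA pair were Stat2, Ifit1, Ifit3, Rsad2, Oas3, Bst2, Gbp2 and B2m, and the 4 with TTCNNNGAA were Irf1, Irf8, Bst2 and Psmb8. All 8 of the first set had differences below 0, with a median of -0.17, against 8 of 15 among the measured genes without the motif, with a median of -0.0025. The count is not stable: leaving out d/d 2 took Ifit1 to 0.031 and Ifit3 to 0.027, and leaving out d/d 3 took them to 0.065 and 0.097. Ifit3 stood at 0.053 with f/f 2 omitted, and Stat2 at 0.048 as the mean of its probe sets. Over all measured genes with the GAAA pair, 55.0% of 402 lay below 0, and of those without it 53.2%. A match is a description of the letters and does not show that a factor binds there.

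The promoters are shown for Rsad2 as the gene with the largest difference, for Ifit1 and Ifit3, which followed each other over the arrays, for Bst2 and Gbp2, and for Xaf1, which was higher in d/d arrays and held neither motif. Each is written 5′ to 3′ along the gene's strand, and capitals mark matches to the GAAA pair, its reverse complement or TTCNNNGAA. They lie at chr12:26456453-26456702 (minus strand, Rsad2), chr19:34640639-34640888 (plus strand, Ifit1), chr19:34583279-34583528 (plus strand, Ifit3), chr8:71537473-71537722 (minus strand, Bst2), chr3:142620413-142620662 (plus strand, Gbp2) and chr11:72301379-72301628 (plus strand, Xaf1).
Rsad2: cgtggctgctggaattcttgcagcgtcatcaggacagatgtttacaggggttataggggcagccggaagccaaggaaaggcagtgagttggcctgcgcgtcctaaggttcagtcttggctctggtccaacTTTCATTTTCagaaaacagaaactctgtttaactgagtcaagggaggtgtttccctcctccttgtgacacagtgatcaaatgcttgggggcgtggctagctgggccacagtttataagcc
Ifit1: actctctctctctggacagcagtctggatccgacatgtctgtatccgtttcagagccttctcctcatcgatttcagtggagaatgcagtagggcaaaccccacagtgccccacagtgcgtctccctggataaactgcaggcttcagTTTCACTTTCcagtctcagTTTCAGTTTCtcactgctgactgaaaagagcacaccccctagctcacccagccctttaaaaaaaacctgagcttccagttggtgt
Ifit3: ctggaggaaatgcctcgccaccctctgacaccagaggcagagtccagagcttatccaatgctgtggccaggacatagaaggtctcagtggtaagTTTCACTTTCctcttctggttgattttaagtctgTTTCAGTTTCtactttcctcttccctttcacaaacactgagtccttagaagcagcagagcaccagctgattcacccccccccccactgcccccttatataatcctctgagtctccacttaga
Bst2: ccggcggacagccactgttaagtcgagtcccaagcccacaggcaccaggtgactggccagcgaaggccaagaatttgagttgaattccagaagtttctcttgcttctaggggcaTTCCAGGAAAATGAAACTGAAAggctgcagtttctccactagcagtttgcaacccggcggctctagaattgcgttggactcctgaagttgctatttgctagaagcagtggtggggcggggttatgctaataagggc
Gbp2: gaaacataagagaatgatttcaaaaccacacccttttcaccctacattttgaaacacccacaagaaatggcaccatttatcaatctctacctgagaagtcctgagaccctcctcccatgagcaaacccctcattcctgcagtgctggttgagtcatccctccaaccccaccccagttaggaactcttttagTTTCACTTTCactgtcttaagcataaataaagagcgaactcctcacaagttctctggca
Xaf1: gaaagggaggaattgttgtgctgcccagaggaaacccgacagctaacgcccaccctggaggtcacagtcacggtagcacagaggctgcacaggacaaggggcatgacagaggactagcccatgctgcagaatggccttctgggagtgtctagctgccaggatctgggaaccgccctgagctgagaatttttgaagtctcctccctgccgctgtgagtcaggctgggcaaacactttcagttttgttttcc
The GAAA pair lies on the reverse strand in Rsad2, Ifit1, Ifit3 and Gbp2, and on the strand shown in Bst2. Rsad2 has 1 match, from 120 to 111 bases before the start. Ifit1 has 2 matches, from 104 to 95 and from 85 to 76 bases before the start, and Ifit3 2, from 156 to 147 and from 122 to 113. The matched letters are the same in both genes, tttcactttc and then tttcagtttc. Gbp2 has 1 match with the letters of the first of these, from 59 to 50 bases before the start. In Bst2 the matches overlap in 1 run, from 136 to 115 bases before the start.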

How the data were processed

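Transcript levels were measured on Affymetrix arrays in 6 samples of mouse uterus at 2 weeks, 3 per genotype. The deposited values are linear intensities, 1 for each array and probe set, for which the submitters' processing notes name RMA, without settings. RMA corrects background and normalizes between arrays, which compresses dim differences. The design had assumed log2 values, so log2 was taken here, with no added constant. The genotype difference was fitted in limma 3.58.1 under R 4.3.3 (lmFit, eBayes, 2-sided, no covariate, 4 residual degrees of freedom), with Benjamini-Hochberg adjustment over all 16813 genes or 41420 probe sets and a threshold of 0.05. The steps were tested on simulated data. The number of arrays limits the precision, and p-values reflect only how these 6 samples vary, which may be technical variation, since no label says that they are separate animals. The genes and lists were chosen with earlier results of these data known. Every member was named, with values by array for those whose groups did not overlap and the 2 of smallest p per role. Pathway genes named were the 2 of smallest p per role, Ifne and 4 receptor chains. Oas1a, Ifitm1, Cmpk2, H2-Aa, H2-Ab1, Cd74, the uterus markers Foxa2 and Wnt7a and the arrays of Irf8, Ifit1 and Ifit3 were chosen after their values were seen. Alternatives covered the block, variance model, array weights, normalization, centring, filters, threshold, probe set choice and arrays left out.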

Additional observations from a re-analysis of the deposited data

How the results depend on the processing

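For 9 of the 29 genes, dim in each genotype, signal over background limits what can be seen. Same-numbered arrays deviated together with correlations of 0.545, 0.0195 and 0.307. The labels give no pairing beyond the number, so the main fit left the arrays unpaired, and these correlations do not settle whether they are pairs. The replicate block gave 457 genes, 574 probe sets, 1 member gene and 3 member probe sets, all 3 of Rsad2 (adjusted p = 0.0181 over genes). Array weights gave 381 genes, 329 probe sets, 1 member gene, 2 member probe sets, 10 members at an unadjusted p under 0.05 (15.4% of all genes, against 12.2% without weights) and 2 pathway genes, Ly6e and Phf11d. An intensity trend with robust variance gave 1 member gene and 1 member probe set, Rsad2 in both. An adjusted p under 0.10 gave 403 genes, 462 probe sets, 1 member gene, 3 member probe sets and 1 pathway gene. Leaving out both arrays numbered 1, chosen after seeing the data, gave 540 genes, 657 probe sets, 3 member genes, 5 member probe sets, 6 pathway genes and 16 members without overlap, where 46.4% of all genes did not overlap. The causes were not tested.

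Over the fits that omit a single array, genes ranged from 26 to 821, probe sets from 37 to 971, member genes from 0 to 3, member probe sets from 0 to 4, pathway genes from 0 to 6, members at an unadjusted p under 0.05 from 3 to 10, members without overlap from 5 to 14 and the members' median from -0.08 to -0.0046. The highest value of each count came without d/d 1, where 18.1% of all genes had an unadjusted p under 0.05 and 35.4% did not overlap, against 12.2% and 16.5% with all arrays, and without any other single array 0 member genes, member probe sets and pathway genes passed.

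Of 460 differences of single members under an alternative, 416 kept direction and side of the threshold, 9 became significant and 35 changed sign, and 16 members never changed sign. Outside left-out arrays the sign changed for Zbp1 (-0.14) and Stat2 (0.048) with the mean of all probe sets, Oasl1 (-0.032) and Dhx58 (-0.0057) with array weights, Oas2 (0.00023) with repeated quantile normalization, Ifi35 (0.00068) with median centring, and Oasl1 (-0.064), Psmb9 (-0.048) and Dhx58 (-0.0020) without both arrays numbered 1. With single arrays left out the ranges were -0.040 to 0.12 for Dhx58, -0.057 to 0.052 for Ifi35, -0.21 to 0.040 for Ifih1, -0.45 to 0.065 for Ifit1, -0.31 to 0.097 for Ifit3, -0.11 to 0.024 for Mx1, -0.12 to 0.067 for Mx2, -0.053 to 0.020 for Oas2, -0.063 to 0.063 for Oasl1, -0.21 to 0.11 for Oasl2, -0.079 to 0.058 for Psmb9 and -0.0046 to 0.12 for Zbp1. No setting shifted the all-gene median by 0.1 or more.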
